A study of Sinohyriopsis cumingii with 10 samples.

Results

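The 200 longest contigs of the transcriptome of the forming pearl sac were followed over 10 times after implantation in the freshwater pearl mussel Sinohyriopsis (Hyriopsis) cumingii. A contig is a stretch of transcript put together from reads, and its length in bases was worked out from the deposited reads, RPKM and library totals. The set holds the 200 longest contigs with a mean under 1000 CPM (counts scaled to a common library total) that could be read in all 10 files, out of 211508 readable contigs. Length and a ceiling on the mean level chose the members, and neither uses the course over time. The last contig inside the set had 9676 bases and the next one outside had 9660. At the ceiling of 1000 CPM, 2 contigs of such length stayed outside with means of 1102 and 1066 CPM, and the highest mean inside was 508 CPM.

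The libraries were of pearl sac taken 2, 6, 12, 24, 48 and 96 h and 7, 14 and 30 d after mantle implantation, and at 0 h, which serves as the starting point. All came from mussels 2 years old with shells of 9 to 10 cm, kept in recirculating water on algae. Each time had 1 library, the labels do not say whether it was 1 animal or a pool, and they do not say which tissue was taken at 0 h. The series title puts the interest in immune responses after the graft. Library totals ran from 20315910 to 24069268 reads. No contig carries a gene name in the files, so the tissue label could not be checked against marker genes and no role can be given to any contig.

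A pearl sac forms when grafted mantle epithelium grows around the implant in a host mussel and begins to lay down nacre. In animals, very long messenger RNAs encode very large proteins, among them giant proteins of muscle, motor proteins of cilia, large matrix proteins and large membrane receptors. When libraries are made from broken-up mRNA, as here, a long transcript gives more pieces than a short one present in the same number of copies. For that reason levels are set side by side per kilobase (RPKM). Courses over time are log2 differences within each contig, and contigs are matched for them by mean CPM, which reflects the reads behind each value.

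The median member had 11140 bases, within a range of 9676 to 27255, against a median of 405 bases over all contigs with a length. 180 had at least 10000 bases, 83 at least 12000 and 30 at least 15000. They made up 0.0948% of the contigs with a length and 1.61% of the assembled bases. By mean level 45 members lay between 1 and 10 CPM, 120 between 10 and 100 CPM and 35 between 100 and 1000 CPM. Per kilobase their mean levels ran from 0.174 to 43.8 RPKM with a median of 2.20, against a median of 1.32 RPKM for the 59641 shorter contigs that passed the filter on low counts. All 200 members passed it too. None had a library without reads, and 133 had at least 100 reads in each library.

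As a share of the reads, the long contigs took up a larger part of the libraries from 12 h on than at the start. They held 0.707% of the reads at 0 h, 0.870% (2 h) and 0.633% (6 h). The share was 1.31% (12 h), 1.32% (24 h), 1.36% (48 h) and 1.09% (96 h). It was 1.55% (7 d), 1.34% (14 d) and 1.06% (30 d). The 7 d share was thus 2.19 times the 0 h share, and the 6 h share 0.896 times. Under TMM scaling, used for the courses further on, this difference was not there: the members' summed level was 9619 CPM at 7 d against 9967 CPM at 0 h. On that scale the sum was highest at 24 h with 13948 CPM and lowest at 96 h with 9104 CPM. The exact binomial intervals (95%) of these shares were narrow, from 1.541% to 1.551% at 7 d against 0.704% to 0.711% at 0 h, but they cover counting error only and not differences between animals or libraries. The order of the libraries rested partly on the most abundant contigs of the whole series. When contigs with a mean of 1000 CPM or more were taken out of the total, the highest share was 2.43% at 24 h, and 7 d had 2.26% against 1.63% at 0 h. In such bulk RNA, more cells of one type and more RNA per cell cannot be told apart.

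**Figure D1:**
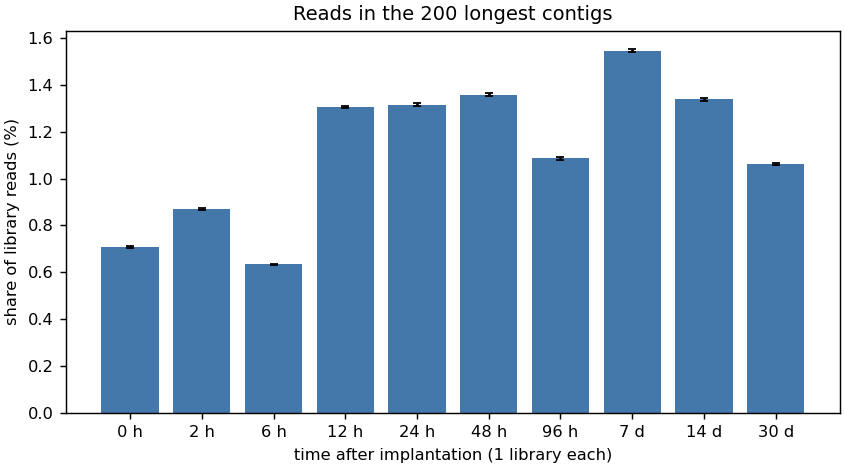
Percentage of each library's reads that fell on the 200 longest contigs (bars, y axis) by time after implantation (x axis), with exact binomial 95% intervals that cover counting error only. The shares at 0, 2 and 6 h lie between 0.633% and 0.870%, and those from 12 h to 30 d between 1.06% and 1.55%.

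A single member made up part of the 30 d share. It held 11.3% of the members' reads at 30 d, and without it the 30 d share was 0.942%. The 5 most abundant members held from 12.5% (48 h) to 21.8% (12 h) of the members' reads. Without these 5, the share was 1.28% (7 d) against 0.606% (0 h), so the larger share at 7 d was not theirs alone.

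Each member was next set against its own 0 h level, on the log2(CPM + 1) scale with library sizes scaled by TMM factors, which assume that most contigs do not change. The median member was higher than at 0 h at each of the 9 later times. Its difference was 0.47 (2 h), 0.20 (6 h), 0.56 (12 h), 0.74 (24 h) and 0.49 (48 h). It was then 0.29 (96 h), 0.36 (7 d), 0.37 (14 d) and 0.15 (30 d). Over the 59841 contigs that passed the filter, the median lay between -0.02 and 0.07 at these times. Members higher than at 0 h numbered 160 of 200 at 2 h, where 50.1% of the contigs tested were higher, and 121 at 6 h (48.0%). The 12 h count was 135 (51.5%), the 24 h count 140 (52.7%), and both 48 h (54.8%) and 96 h (53.8%) had 133. From 7 d on they numbered 137 (55.0%), then 138 at 14 d (53.4%) and 124 at 30 d (51.2%). The counts were thus above the background at each time, by most at 2 h.

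With library totals in place of TMM factors the same medians were larger later on. They were then 0.98 (12 h), 1.31 (48 h), 1.50 (7 d) and 0.61 (30 d), and 0.03 (6 h), while the median over the contigs tested was 0.20 (12 h), 0.44 (48 h) and 0.56 (7 d). The direction of the median member was the same under both scalings, and the time of its largest difference was not: 24 h under TMM and 7 d with totals. All 9 comparisons share the single 0 h library.

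The scaling largely cancels in the difference between long and shorter contigs of like abundance. The contigs were put into classes of 1 log2 unit of mean CPM, and the median of the shorter contigs in a member's class was taken from the member's own difference. 8 classes held members, and 20820 shorter contigs fell into them. The median member stood above the shorter contigs of its class by 0.57 (2 h), 0.31 (6 h), 0.65 (12 h) and 0.68 (24 h). The values were 0.43 (48 h), 0.16 (96 h), 0.51 (7 d), 0.41 (14 d) and 0.29 (30 d). Members above their class numbered 170 of 200 (2 h), 147 (12 h), 139 (24 h), 122 (96 h) and 154 (30 d). No test can be given for these differences, because each time had 1 library and members are not replicates of a time.

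**Figure D2:**
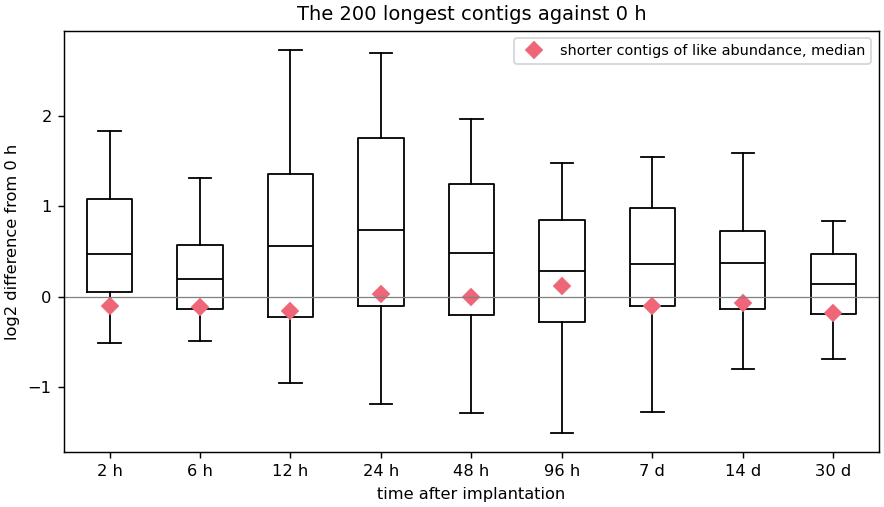
Log2 difference from 0 h of the 200 longest contigs (y axis) at each later time (x axis). Boxes span the quartiles with the median as a line, whiskers reach the 5th and 95th percentile of the 200 members, and diamonds are the median of shorter contigs weighted to the members' abundance classes. The box median lies above the diamond at each time, by most at 12 and 24 h and by least at 96 h.

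At each later time other than 6 h and 96 h, contigs of 4001 to 9675 bases lay between the members and the shorter classes. Shorter contigs were split by length and each class was weighted to the members' abundance. At 24 h the median difference from 0 h was 0.74 for the members, 0.52 for contigs of 4001 to 9675 bases and 0.07 for those of 2001 to 4000 bases. It was -0.37 for contigs of 1001 to 2000 bases, -0.51 for 501 to 1000 and -0.43 for those up to 500 bases. At 7 d the members were at 0.36, contigs of 4001 to 9675 bases at 0.21, and contigs up to 500 bases at -0.93. At 2 h the members were at 0.47, contigs of 4001 to 9675 bases at 0.21, and the shorter classes between -0.34 and -0.03. At 14 d contigs of 4001 to 9675 bases were at 0.01, against 0.37 for the members, and at 30 d at -0.07, against 0.15. At 6 h and 96 h the order was different. At 6 h the contigs up to 500 bases had the highest median (0.26, against 0.20 for the members), and at 96 h contigs of 4001 to 9675 bases (0.32) were slightly above the members (0.29). The 200 contigs next in length, of 8272 to 9660 bases, were also taken as they are, without weighting. Their median was 0.72 (12 h), 0.85 (24 h), 0.39 (96 h) and 0.49 (7 d), above that of the members. At the other later times it was below that of the members. Within the 200 members length did not order the differences: Spearman's rho between length and difference from 0 h lay between -0.10 and 0.08 over the 9 times (n = 200 contigs that share their libraries). Among the 20820 shorter contigs of like abundance rho was weak as well, at most 0.18 (2 h), and it was -0.01 at 6 h, -0.02 at 14 d and 0.06 at 30 d.

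**Figure D3:**
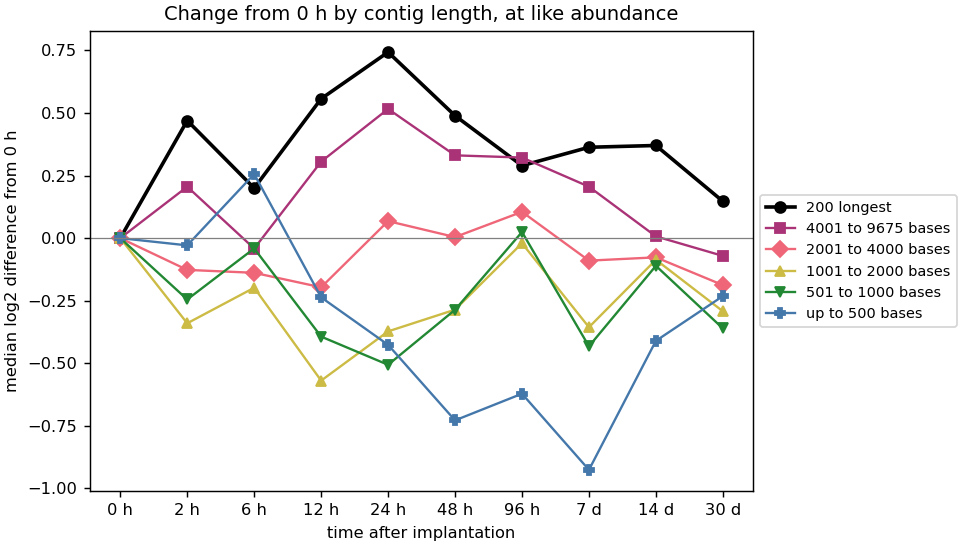
Median log2 difference from 0 h (y axis) of contigs in 6 length classes by time (x axis), each class weighted to the abundance classes of the 200 longest contigs. At 24 h the classes above 4000 bases lie at 0.52 and 0.74 and those up to 2000 bases between -0.51 and -0.37.

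The difference between long and shorter contigs was not equal at all abundances. Among contigs with a mean of 10 to 100 CPM the 120 members had a median of 0.82 at 24 h, against 0.09 for 5927 shorter contigs. Among those of 1 to 10 CPM the 45 members were at 0.97 and 24285 shorter contigs at 0.09. Among those of 100 to 1000 CPM the 35 members were at 0.09 and 956 shorter contigs at -0.39. The 35 abundant members were below the shorter contigs at 96 h, with -0.33 against -0.01, and at 6 h, with -0.12 against -0.06. A property of the whole libraries also differed between the times. Among contigs under 1000 CPM, the contig length at which the reads of a library split evenly was 2723 bases (24 h) and 2600 (12 h), against 2094 (0 h). It was 2339 bases (2 h), 2083 (6 h), 2527 (48 h), 2275 (96 h), 2469 (7 d), 2081 (14 d) and 2052 (30 d). At 6 h, 14 d and 30 d this length was thus below that at 0 h. RNA length or quality was not among the values used here, and its part in the result was not tested.

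Because every difference from 0 h carries the 0 h library, each contig was also set against its own mean over the 10 libraries. The median member was then 0.42 log2 units below the shorter contigs of its class at 0 h, 0.22 below (6 h), 0.24 below (96 h), 0.04 below (14 d) and 0.10 below (30 d). It was above them by 0.21 (2 h), 0.22 (12 h), 0.27 (24 h), 0.08 (48 h) and 0.06 (7 d). The 0 h library had the lowest value, so the differences from 0 h include the low position of long contigs in that library. At 6 h, 96 h, 14 d and 30 d the median member stood above its class only when set against 0 h.

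The library in which a member was highest was most often 24 h, with 55 of 200 members, then 14 d with 34, 12 h with 33 and 2 h with 30. The other libraries had 7 to 9 members each. Together 12 and 24 h had 88 members (44.0%), where the share was 27.3% among shorter contigs weighted to the same abundance. From 48 h to 7 d the numbers were 23 (11.5%) against 21.8%. The lowest library was 0 h for 60 members (30.0%), against 11.5% among the shorter contigs. These counts move with the scaling. With library totals 61 members were highest at 12 or 24 h and 81 from 48 h to 7 d, so the order of these groups reversed. Of the 81, 54 were highest at 7 d. The lowest library with totals was 0 h for 86 members and 6 h for 67.

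**Figure D4:**
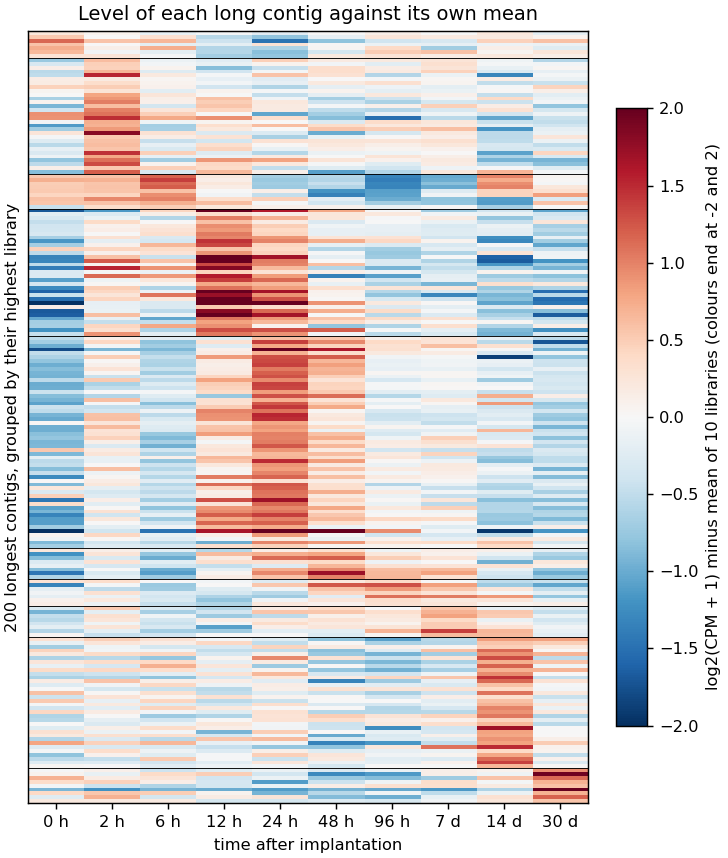
Each row is 1 of the 200 longest contigs and each column 1 library in order of time. Colour gives log2(CPM + 1) under TMM scaling minus the contig's mean over the 10 libraries, and rows are grouped by the library with the highest value, with lines between groups. The largest group, 55 rows, is highest at 24 h, and 33 rows are highest at 12 h.

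Large differences from 0 h went almost entirely upward. A limit of 4-fold with 1 CPM added to both sides was used for single times. It was passed by 50 members (25.0%) at 1 or more times, beside 11.0% of all contigs tested and 32.9% of shorter contigs at like abundance. The limit was passed upward by 46 members (23.0%, with 7.50% of all contigs tested and 19.9% at like abundance). It was passed downward by 4 members (2.00%, with 3.72% of all contigs tested and 14.6% at like abundance). The members therefore passed the limit upward about as often as contigs of like abundance and downward less often in these counts, a difference that was not tested.

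The counts past the limit were highest at 24 h and 12 h. At 24 h there were 36 above and 1 below, with 3.22% of the contigs tested above and 1.93% below. At 12 h there were 22 above (3.45% of the contigs tested) and 0 below (1.36%). Before that, 7 members were above at 2 h (1.31%) and 3 at 6 h (1.47%), with 0 below at either time (0.224% and 0.120%). At 48 h 10 were above (1.43%) and 1 below (2.02%), and at 96 h 6 above (1.01%) and 2 below (1.59%). At 7 d, 14 d and 30 d the members above numbered 3 (0.658%), 1 (0.700%) and 1 (1.53%). At these last times 0 members were below (1.69%, 1.08% and 0.267% of the contigs tested). Shorter contigs of like abundance passed upward in 10.9% at 24 h, against 18.0% of the members, and in 10.2% at 12 h, against 11.0% of the members. At the other 7 times the members' share was the lower one, for example 1.50% against 5.46% of the shorter contigs at 6 h and 5.00% against 6.28% at 48 h. Only at 24 h, then, did the upward count stand clearly above that of contigs of like abundance. With library totals 84 members passed upward and 1 downward. In either direction that was 42.5% of the members, beside 13.9% of all contigs tested. The share at like abundance was not worked out with totals.

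The members spread a little less over time than shorter contigs did. The ratio of the highest to the lowest library, with 1 CPM added to each, had a median of 3.35 over the members, against 3.77 for shorter contigs weighted to the same abundance. It ran from 1.33 to 1095. The SD over the 10 libraries was lower than the median of the shorter contigs of its class in 115 of the 200 members.

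A smooth change over time was tested for every contig with edgeR's quasi-likelihood test, with a linear and a quadratic term of log2(hours + 1) tested jointly and Benjamini-Hochberg adjustment over all 59841 contigs. The spread in this test is the scatter of single libraries about the curve. 14 of the 200 members passed (7.00%), beside 7.63% of all contigs tested and 9.12% of shorter contigs at like abundance. The share of members was thus near the background and is not a result about long contigs. Of the 14, 13 had a fitted peak (3.27% of all contigs tested were called with a peak) and 1 a trough (3.81%), with 0 rises (0.192%) and 0 falls (0.358%). At an unadjusted p under 0.05 there were 57 members (28.5%), beside 29.2% of all contigs tested and 32.8% of shorter contigs at like abundance. Among all 200 fitted curves, passed or not, 119 had a peak (59.5%, against 45.6% of shorter contigs at like abundance) and 52 a trough (26.0% against 39.0%).

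The number that passed moved by more than 1.5 times with single libraries. With the 24 h or the 14 d library left out, 1 member passed. Leaving out 2 h gave 2, 12 h gave 4 and 48 h gave 5, while 6 passed if 7 d was dropped and 8 if 0 h was. More passed with 6 h (23) or 30 d (22) dropped. With 96 h dropped 11 passed (5.50%, against 4.40% of all contigs). The share of all contigs moved the same way as these counts, except without 0 h. There 4.00% of the members passed, against 9.28% of all contigs, which was above the 7.63% with every library. Of all contigs 2.31% passed with 24 h left out, 3.83% with 14 d, 3.42% with 2 h, 13.6% with 6 h and 10.3% with 30 d. The share was 3.50% with 12 h left out, 3.33% with 48 h and 4.65% with 7 d. The members' 11.5% without 6 h and 11.0% without 30 d were thus near the background.

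The 13 members with a called peak had fitted turning points between 19.3 and 39.5 h, with a median of 27.6 h. 7 of them were highest at 12 h, 5 at 24 h and 1 at 48 h, and 10 had their lowest library at 0 h. Their median difference from 0 h was 1.52 log2 units (2 h), 1.15 (6 h), 3.49 (12 h) and 2.83 (24 h). It was 2.40 (48 h), 1.53 (96 h), 1.38 (7 d), 0.85 (14 d) and 0.46 (30 d). Because the test chose these contigs, the medians are a description. Of the 13, 11 had under 11000 bases, and the longest had 19557. The median length was 10258 bases over all 14 members that passed and 11272 over those that did not. This difference was not tested.

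By the rule for named contigs, the 2 members with the lowest p among peaks and rises and the 2 among troughs and falls are given by name. contig170661 (10311 bases) was at 31.7 CPM (0 h), 149 (2 h), 137 (6 h), 750 (12 h) and 682 (24 h). It was then at 312 CPM (48 h), 192 (96 h), 170 (7 d), 80.0 (14 d) and 60.8 (30 d). The 12 h level was 23.7-fold above 0 h, with an exact counting interval (95%) from 21.7 to 25.9. It passed the smooth-change test (edgeR adjusted p = 0.0183), and without the 24 h library it did not (adjusted p = 0.0513). The contig was thus high on the first day, high already in part at 2 and 6 h, and 1.92-fold above 0 h at 30 d.

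contig176287 (10358 bases) had the same kind of course at a lower level. It was at 1.55 CPM (0 h), 8.83 (2 h), 7.42 (6 h), 44.7 (12 h) and 16.6 (24 h). It was at 6.40 CPM (48 h), 4.91 (96 h), 4.45 (7 d), 3.09 (14 d) and 1.50 (30 d). The 12 h level was 28.8-fold above 0 h (19.4 to 44.7, from 25 reads at 0 h), and the edgeR adjusted p was 0.0277. The call was lost without 2 h (adjusted p = 0.0592), without 24 h (0.0626) and without 14 d (0.0712). It was also lost with contigs of at least 5 CPM alone (0.0602) and with limma on log2(RPKM + 1) (0.124).

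contig036727 (11227 bases) was a contig of 1 library. It had 25571 reads at 30 d, or 1161 CPM, and between 1 and 16 reads in each other library, which was at most 0.60 CPM. The 30 d level was 3737-fold above 0 h, with a counting interval from 1601 to 11511, since 0 h had 5 reads. Of the 200 members it alone exceeded 10 CPM in 1 library while staying below 1 CPM in the other 9. The fitted curve counted as a trough (edgeR adjusted p = 0.00261), but a single library carries this call, and no second library of that time was analysed here.

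contig235452 (10933 bases) had the next lowest p among troughs and falls and did not pass (edgeR adjusted p = 0.0623). It passed with DESeq2 (adjusted p = 0.0110), with the rank of time in edgeR (0.0398), without 0 h (0.0299) and without 30 d (0.0357). It was farther from passing with library totals (adjusted p = 0.203), with limma on log2(RPKM + 1) (0.214) and without 2 h (0.153). It was at 225 CPM (0 h), 336 (2 h), 204 (6 h), 227 (12 h) and 151 (24 h). It was at 66.1 CPM (48 h), 41.6 (96 h), 82.1 (7 d), 57.8 (14 d) and 88.3 (30 d). Its 96 h level was 5.40-fold below 0 h (5.04 to 5.80). Under TMM scaling the 5 libraries up to 24 h were all above the 5 libraries from 48 h on, and with library totals they were not, with 126 CPM at 6 h and 132 CPM at 7 d.

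**Figure D5:**
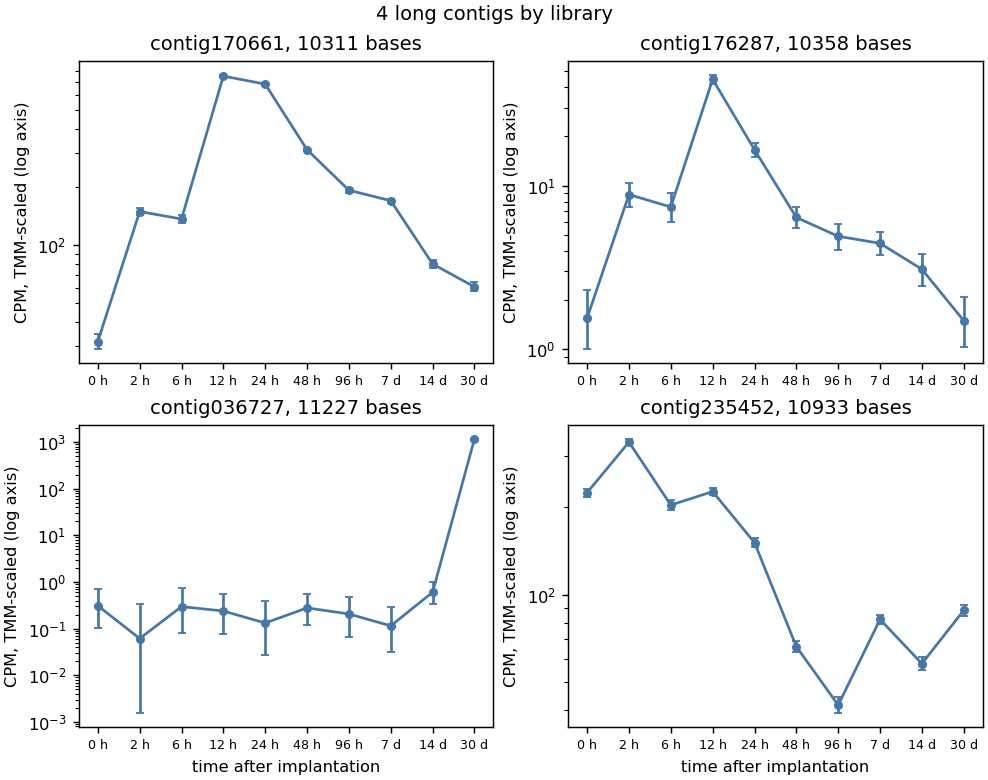
Level of 4 long contigs in CPM under TMM scaling (y axes, log scale) by time (x axes); points are single libraries and bars exact Poisson 95% intervals for counting error. The upper contigs peak at 12 h at 750 and 44.7 CPM, contig036727 reaches 1161 CPM at 30 d alone, and contig235452 lies between 41.6 and 88.3 CPM from 48 h on.

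Other members with a called peak are given by their length. A contig of 9891 bases was at 10.7 CPM (0 h), 148 (12 h), 247 (24 h), 203 (48 h), 90.5 (96 h) and 11.6 (14 d) (edgeR adjusted p = 0.0323). On the log2(CPM + 1) scale it stood farther above 0 h than any other member at 24, 48 and 96 h, by 4.40, 4.11 and 2.96. Without the added CPM that order does not hold, since the contigs of 17133 and 9936 bases started lower. A contig of 17133 bases was at 3.42 CPM (0 h), 7.12 (2 h), 7.27 (6 h), 15.5 (12 h) and 86.0 (24 h) (edgeR adjusted p = 0.0361). A contig of 9936 bases peaked later, with 13.3 CPM at 48 h against 0.62 at 0 h (edgeR adjusted p = 0.0302).

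The members farthest from 0 h at single times also included some that did not pass the smooth-change test. On the same scale the highest at 2 h and at 6 h was a contig of 10935 bases, with 44.0 CPM (2 h) and 28.0 (6 h) against 4.97 (0 h), which was 8.85-fold (7.02 to 11.3) and 5.63-fold (4.41 to 7.26). It was higher again at 12 h, with 54.8 CPM. The highest at 14 d was a contig of 13154 bases, at 91.9 CPM against 21.0 at 0 h. The lowest at 12 and 24 h was a contig of 10956 bases, with 24.8 CPM (12 h) and 11.4 (24 h) against 75.9 (0 h), and it was back at 50.9 CPM (30 d) (edgeR adjusted p = 0.0792).

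The 10 longest members did not share a course. The longest contig, of 27255 bases, was at 330 CPM (0 h), 374 (2 h), 328 (6 h), 259 (12 h) and 225 (24 h). It was at 151 CPM (48 h), 124 (96 h), 180 (7 d), 478 (14 d) and 469 (30 d). It was thus lowest at 96 h and highest at 14 d, and did not pass the test (edgeR adjusted p = 0.284). The next, of 20967 bases, was the member with the lowest level per kilobase, 0.174 RPKM, and lay between 1.55 CPM at 0 h and 5.58 at 2 h.

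The contig of 19557 bases was the one of the 10 that passed (edgeR adjusted p = 0.0404). It was at 15.1 CPM (0 h), 22.3 (2 h), 68.9 (6 h), 240 (12 h) and 156 (24 h), and at 24.0 CPM (30 d). A contig of 18190 bases was nearly level, between 57.1 CPM at 0 h and 100.0 at 2 h. Those of 17855 and 17555 bases had ratios of highest to lowest library of 2.48 and 2.19. For each of the 10, the most similar member had a Spearman correlation over the 10 libraries between 0.76 and 1.00. For the longest contig it was a contig of 13189 bases, with 0.99.

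The remaining 4 of the 10 longest had nearly the same length and nearly the same course. They had 18362, 18360, 18147 and 17786 bases and means of 14.3, 15.9, 12.6 and 39.6 CPM. Each was highest at 6 h and lowest at 96 h. The contig of 18362 bases was at 19.4 CPM (0 h), 30.7 (6 h), 4.58 (96 h) and 26.9 (14 d). The contig of 17786 bases was at 51.1, 83.9, 13.7 and 72.6 CPM at the same times. Between the 4, Pearson's r of log2 CPM over the 10 libraries, after removing each library's mean over the members, lay between 0.989 and 0.997.

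Such sets recurred. With r of at least 0.98 and lengths within 5%, a rule chosen after seeing the data, 24 members were linked into 9 sets of 2 to 4 contigs. Of the 4479 pairs of members within 5% in length, 20 reached that r (0.447%), against 5 of 15421 other pairs (0.0324%). A set of 3 with 15877, 15832 and 15736 bases was highest at 24 h and lowest at 0 h. A set of 3 with 10444, 10358 and 10163 bases was highest at 12 h, and each of its contigs passed the smooth-change test. It includes contig176287. Whether the contigs of a set belong to 1 gene was not tested, and reads may be divided between near-identical contigs, so their levels are uncertain and the members are not independent of each other. Counting each set once left 185 contigs, of which 12 (6.49%) passed.

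The most abundant members per library had several courses. The highest mean CPM belonged to a contig of 14904 bases, which had 34.1 RPKM on average. It was at 596 CPM (0 h), 245 (48 h), 369 (96 h), 664 (7 d) and 967 (14 d). The highest level per kilobase, 43.8 RPKM, was that of a contig of 10674 bases. It was at 324 CPM (0 h), 861 (2 h), 720 (6 h), 1181 (12 h), 701 (24 h) and 154 (48 h). The more abundant of the 2 members with 11223 bases was at 141 CPM (0 h), 623 (24 h) and 175 (30 d). None of these 3 passed the smooth-change test in edgeR: the adjusted p was 0.325 for 14904 bases, 0.164 for 10674 bases and 0.174 for 11223 bases. The other 2 of the 5 most abundant were the longest contig and contig170661.

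At the other end, 5 members hardly varied. The steadiest, of 13688 bases, lay between 18.2 CPM at 24 h and 24.7 at 2 h, with an SD of 0.138 log2 units over the 10 libraries. The next, of 12717 bases, lay between 49.6 CPM at 6 h and 69.1 at 2 h. Those of 9684, 13665 and 10669 bases had ratios of highest to lowest library of 1.34, 1.37 and 1.50. This steadiness is relative to TMM scaling: with library totals the contig of 13688 bases had 13.8 CPM at 6 h but 35.8 CPM at 7 d.

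A steady slope on log2(hours + 1) was passed by 0 of the 200 members with edgeR (adjusted p of 0.186 or more in each), beside 0.00167% of all contigs tested, which was 1 contig. At an unadjusted p under 0.05 there were 12 members (6.00%), beside 9.48% of all contigs tested and 12.2% of shorter contigs at like abundance. DESeq2's likelihood ratio test called 2 members, and limma-voom and limma on log2(RPKM + 1) called 0. Without the 0 h library edgeR called 2. The 1.00% of members in either case was below the share of all contigs, which was 1.27% with DESeq2 and 1.64% without 0 h.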

How the data were processed

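The reads column deposited by the authors was taken to hold expected counts: its values are whole numbers except 0.5, which stands where RPKM is 0 in all 631015 cases and was read as 0. The deposited RPKM values, per the file headers, are the authors' reads scaled to length and library total. Aligner, assembler and counting program were not stated in the sources used here. Per the labels' protocols, libraries came from 100 ng of mRNA with random primers, cDNA of 300 to 500 bp and 12 to 15 PCR cycles. Length was reads over the product of RPKM and the library total (0.5 values left out of the total), in RPKM's units, and came out whole to a relative distance of 5.6e-08. In the 30 d file 166 contigs were unreadable and were left out of all libraries (0.105% of its reads). Contigs were kept with filterByExpr on the quadratic design (59841), scaled with TMM factors (0.621 to 1.61) and tested with edgeR 4.0.16 (R 4.3.3). DESeq2 1.42.0, limma 3.58.1, other scalings, filters and codings of time, and leaving out each library were alternatives. Each time is 1 group with 1 library. The smooth-change test was tried on simulated counts with independent scatter and changes of the same quadratic form that it fits. Departures shared by a whole library were not simulated, so the trial cannot show how the test behaves with them. A curve whose turning point lay between the second and the second last time was called a peak or trough. Named contigs were the 2 lowest p of peaks or rises and of troughs or falls; by length, the 10 longest, the 5 most abundant, the 5 steadiest and the extremes at each time. The 17133 and 9936 base contigs were chosen after their values were seen. The members, the lists and the tests were chosen with earlier results of these data known. Intervals cover counting error alone, and PCR copies are no independent reads. Depth limits contigs of few reads most: 67 members had under 100 reads in some library.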

Additional observations from a re-analysis of the deposited data

How the results depend on the processing

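Members with a smooth change, 14 of 200 (7.00%), were 12.5% with library totals, 1.00% with a mean of at least 5 CPM, 15.5% with DESeq2, 2.00% with limma on log2(RPKM + 1), 4.50% with the filter on the straight-slope design (chosen after seeing the data) and 3.00% of the 100 longest; leaving out single times gave 0.50% to 11.5%. Over all contigs tested the shares in the first 5 settings were 14.1%, 4.05%, 17.3%, 6.11% and 6.21%, above the members' share in each; the members' share was above that of all contigs with no filter (10.0% against 7.07%), without 96 h (5.50% against 4.40%) and without 30 d (11.0% against 10.3%). Members with a steady slope, 0%, were 0.50% with no filter and 1.00% with DESeq2, and 0% to 1.00% with single times left out. The share of all contigs was higher, with 0.913% (no filter), 1.27% (DESeq2) and 1.64% (without 0 h, where the members had 1.00%). Members at least 4-fold from 0 h, 25.0%, became 42.5% with library totals (13.9% of all contigs), 12.0% with 5 CPM added (3.63%), 7.00% when set against a contig's average in the remaining 9 libraries (5.31%), and 74.0% with the limit at 2-fold (45.1%). With 0.1 CPM added it was 33.5%, below the 42.6% of all contigs, whereas the 25.0% with 1 CPM added was above their 11.0%. The median of members minus shorter contigs of like abundance kept its positive sign in all 63 combinations of time and setting (0.10 to 1.20). All of these take the same 0 h library as base, so they cannot show how far the sign rests on it. Set against a contig's own mean, the median was -0.22 (6 h), -0.24 (96 h), -0.04 (14 d) and -0.10 (30 d), and positive at the other later times. With 0 h as base and against contigs of at most 1000 bases, it was 0.15 (6 h), 1.20 (24 h), 0.84 (48 h), 0.40 (96 h) and 0.96 (7 d). In classes of mean RPKM it was 0.47 (2 h) and 0.16 (30 d), and with a prior of 5 CPM 0.44 (2 h) and 0.28 (14 d). Of the reads of contigs under 1000 CPM the members held 1.63% (0 h), 1.96% (2 h), 1.53% (6 h), 2.30% (12 h), 2.43% (24 h), 2.11% (48 h), 1.72% (96 h), 2.26% (7 d), 2.09% (14 d) and 1.89% (30 d). The adjusted p with single times left out was 0.0125 to 0.0513 for contig170661, 0.0235 to 0.0712 for contig176287, 0.00168 to 0.0124 for contig036727 (which had no value without 14 d or 30 d, or with the straight-slope filter) and 0.0299 to 0.153 for contig235452. For none of these was the cause tested. No paired analysis was possible because each time had 1 library.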

Other observations

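The 2 contigs of this length that were left out for a mean of 1000 CPM or more had courses of their own under TMM scaling. One, of 14073 bases, was at 559 CPM (0 h), 424 (2 h), 485 (6 h), 514 (12 h) and 962 (24 h), then at 1402 (48 h), 1623 (96 h), 1599 (7 d), 1168 (14 d) and 408 (30 d). The other, of 10493 bases, was lowest at 48 h (659 CPM) and highest at 14 d (1527 CPM). Neither passed the smooth-change test (edgeR adjusted p = 0.254 and adjusted p = 0.679).

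The next 200 contigs by length (8272 to 9660 bases) lay above shorter contigs of like abundance by 0.55 (2 h), 0.22 (6 h), 0.83 (12 h) and 0.84 (24 h). The values were 0.55 (48 h), 0.29 (96 h), 0.57 (7 d), 0.40 (14 d) and 0.30 (30 d). Of these contigs 11 (5.50%) passed the smooth-change test, beside 7.63% of all contigs tested.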
